A study of Mus musculus with 11 samples.

Results

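The 7 genes of the mouse MHC class I pathway followed here across genotypes and cell types were H2-Q5, H2-M2, H2-M3, H2-K1, H2-T23, B2m and Tapbp. They were chosen by name, with earlier results of these arrays known, and each gene was represented by the probe set with the highest mean over the 11 arrays among probe sets annotated to it alone. Of the 7 genes, 5 had such a probe set, 1 each, out of 19933 genes on the array. H2-K1 and H2-T23 had 0 and are described only through probe sets that they share with near-identical genes. Class I molecules are cell surface complexes of a polymorphic heavy chain, the light chain beta-2 microglobulin and a peptide cut from proteins inside the cell. They show these peptides to CD8 T cells and also serve as ligands of natural killer cell receptors. In the mouse the heavy chains are encoded in the H2 complex, where the classical K and D genes are accompanied by many nonclassical Q, T and M genes that arose by duplication and are often close copies of each other. Class I transcription is known to be driven by NLRC5 with the RFX complex, by interferon regulatory factors and by NF-kappaB, and class I on red cells is known to decline as they mature.

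The mice carried a gfp cassette in Zbtb46, a zinc finger transcription factor gene expressed in classical dendritic cells (DC) and some progenitors. WT mice were Zbtb46+/+, Het mice Zbtb46gfp/+ and KO mice Zbtb46gfp/gfp, all on the C57Bl/6 background and studied at steady state, with no age or sex used here. Bone marrow of each genotype gave 3 sorted erythroid populations, all Lin- CD117+ CD41- CD16/32-. Pre MegE cells, which can form megakaryocytes and red cells, were CD150+ CD105-, Pre CFU-E cells were CD150+ CD105lo, and CFU-E cells, which form erythroid colonies, were CD150- CD105+. Splenic CD4+ DC of WT and KO mice were gated as B220- CD11c+ MHCII+ cells that were CD172+ CD11b+ CD4+ and lacked CD8. There was 1 array per genotype and cell type, 11 in all, of which 9 were of progenitors. All 3 genotypes share 1 strain label, and the sources used here do not give the strain in which the allele was made or any backcross. Nothing in the labels ties arrays to individual mice, so a difference between genotypes and one between mice or sorts cannot be told apart.

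Values are log2 of the deposited intensity, for which the median of all probe sets lay between 7.61 and 7.77 on every array. Zbtb46 itself was 9.67 in WT and 8.02 in KO DC, and 8.87, 8.62 and 7.50 in WT, Het and KO CFU-E. In Pre CFU-E it was 8.14, 8.30 and 7.70, with Het above WT. In Pre MegE it was 7.52, 7.67 and 7.71, with no lower value in KO, but each of these was below its array median. All 10 markers of CD4+ DC were above the array median on both DC arrays and 4 to 6 of them on the progenitor arrays, with a summed intensity of 75839 to 76045 in DC and 2024 to 3651 in the progenitors, and 8 of 8 erythroid and megakaryocyte progenitor markers were above the array median in Pre MegE and Pre CFU-E and 7 of 8 in CFU-E. Because RNA was taken from sorted pools, fewer cells expressing a gene and less RNA per cell cannot be told apart.

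Over the 9 progenitor arrays, H2-Q5 was highest in Pre MegE and lowest in CFU-E in each genotype, and at each stage it was highest in WT and lowest in KO. H2-Q5 lies in the Q cluster of the H2 complex on chromosome 17, and RefSeq classes it as a transcribed pseudogene, so its RNA need not make a class I protein. Its level in WT was 10.14 in Pre MegE, 9.62 in Pre CFU-E and 8.59 in CFU-E. Het arrays gave 9.57, 8.85 and 8.12 in the same order. KO arrays gave 9.32, 8.53 and 8.01. Within every stage the 3 genotypes kept the order WT, Het, KO, and within every genotype the stages kept the order Pre MegE, Pre CFU-E, CFU-E. In DC the level was 11.10 in WT and 10.83 in KO, above every progenitor array. Sorted by level, WT Pre CFU-E (9.62) and Het Pre MegE (9.57) were next to each other, as were WT CFU-E (8.59) and KO Pre CFU-E (8.53), and with 1 array each no test separates such neighbours.

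**Figure D1:**
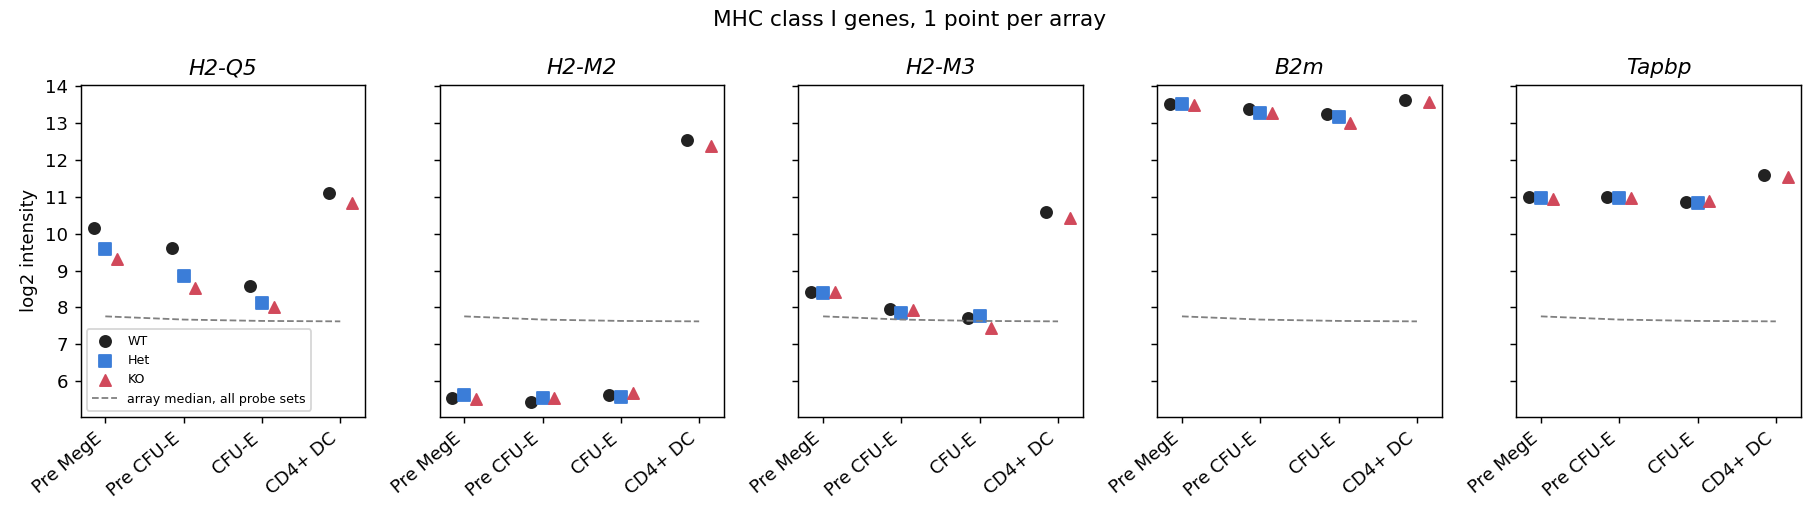
Log2 intensity of the 5 measured class I genes, 1 point per array, by cell type (x axis) and genotype (black circle WT, blue square Het, red triangle KO), with the mean array median of all probe sets as a dashed line. H2-Q5 steps down from Pre MegE to CFU-E and from WT to KO, H2-M2 is at 5.45 to 5.68 in every progenitor array and at 12.54 and 12.38 in DC, and B2m and Tapbp lie nearly flat.

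Erythroid stage came first among the differences that the data can test. A fit over the 9 progenitor arrays with stage and genotype as terms compared stages within genotypes. H2-Q5 fell by 0.68 on the log2 scale (SE 0.0822, limma adjusted p = 6.86e-05) from Pre MegE to Pre CFU-E and by 0.76 (adjusted p = 7.65e-05) from Pre CFU-E to CFU-E. Over both steps it fell by 1.44 (adjusted p = 2.33e-07), a 2.70-fold lower intensity. H2-M3, whose product presents N-formylated bacterial peptides, was 8.41, 8.40 and 8.43 in WT, Het and KO Pre MegE, 7.96, 7.84 and 7.94 in Pre CFU-E and 7.71, 7.78 and 7.44 in CFU-E. The 3 Pre MegE arrays lay above all 6 later arrays, and KO CFU-E was the lowest and below its array median. H2-M3 fell by 0.50 (SE 0.0786, adjusted p = 0.000368) at the first step and by 0.77 over both (adjusted p = 1.34e-05). Many markers of other blood cells also fell from Pre MegE to CFU-E, where 35.1% of all tested genes were called lower. Lower in CFU-E were 7 of 7 neutrophil markers (median -1.05) and 5 of 6 tested CD4+ DC markers (median -0.94). The other CD4+ DC marker, Zbtb46, rose by 0.70. Also lower were 2 of 2 tested B cell markers (median -0.60) and the only tested macrophage and NK cell markers, Vcam1 (-0.49) and Nkg7 (-3.38). Of 2 tested plasmacytoid DC markers, Tcf4 was lower (-0.50) and Bst2 higher (0.36). The only tested T cell marker, Cd3e, differed by -0.02. The neutrophil markers summed to 34430 to 40356 in Pre MegE and 16264 to 20540 in CFU-E, and the NK cell markers to 6018 to 6317 and 616 to 831. Only 1 of the 4 NK cell markers, Nkg7, was above the median of any progenitor array, so that sum is mostly 1 gene. The part of other cell types in the class I falls was not tested.

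B2m, the light chain shared by all class I molecules, was among the brightest probe sets throughout, with 13.51, 13.49 and 13.47 in WT, Het and KO Pre MegE, 13.38, 13.25 and 13.27 in Pre CFU-E and 13.24, 13.14 and 12.98 in CFU-E. The Pre MegE arrays were all above the Pre CFU-E arrays, which overlapped with none of the CFU-E arrays. B2m fell by 0.37 (SE 0.0561, adjusted p = 0.000194) over both steps, a 1.30-fold change. Tapbp encodes tapasin, which holds empty class I heavy chains at the peptide transporter. It was 10.94 to 10.99 in Pre MegE, 10.95 to 10.98 in Pre CFU-E and 10.83 to 10.88 in CFU-E, with a difference of -0.10 over both steps (SE 0.044, adjusted p = 0.0593). The Tapbp difference depends on the scaling, at 0.02 with arrays centred on their medians and -0.20 with quantile normalization (adjusted p = 0.692 and 0.00245), and it also passed with array weights (-0.12, 0.018) and without KO CFU-E (-0.12, 0.0477). H2-M2, a nonclassical heavy chain gene, lay between 5.45 and 5.68 on all 9 progenitor arrays, below the median of every array, and was not tested there.

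At the first step 3 of the 4 tested genes were called lower, where 29.3% of the 10701 tested genes were. At the second step 3 of 4 were called lower against 25.3% of all tested genes, and over both steps 3 of 4 against 35.1%. Each count rests on 4 genes, and stage changed many genes. The second-step falls of H2-M3 (-0.27, adjusted p = 0.0215) and B2m (-0.18, adjusted p = 0.0282) were small. Without the WT Pre CFU-E array they were -0.26 and -0.17 (adjusted p = 0.084 and 0.111), without KO Pre CFU-E -0.21 and -0.15 (0.0941 and 0.104), and without KO CFU-E -0.16 and -0.12 (0.052 and 0.0902), so that neither passed and H2-Q5 alone was called. The B2m fall at this step also missed the threshold without Het CFU-E (-0.21, adjusted p = 0.0519), with each array centred on its median (-0.14, 0.0704) and without the filter on low values (0.0554). The first-step fall of B2m (-0.19, adjusted p = 0.0124) missed it without KO Pre MegE (-0.16, 0.0749), without Het Pre CFU-E (-0.16, 0.0553) and with centring (-0.11, 0.112). Centring moved the median of all genes at this step from 0.038 to 0.122, and the share of calls that were higher from 55.9% to 66.7%.

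Splenic CD4+ DC had more RNA of all 5 measured genes than the progenitors. H2-M2 showed the widest gap, at 12.54 in WT DC and 12.38 in KO DC against at most 5.68 in any progenitor array. Since the progenitor values were below the array medians, which averaged 7.69, only a bound can be given, at least 27.2-fold higher in DC (4.77 on the log2 scale), set at those medians. H2-M2 passed the filter of this comparison only through the DC arrays. H2-M3 was 10.57 and 10.41 in WT and KO DC, a difference of 2.50 (SE 0.0792, adjusted p = 1.88e-10) or 5.67-fold. H2-Q5 was higher by 1.93 (SE 0.121, adjusted p = 4.03e-08), or 3.81-fold. Tapbp was 11.58 and 11.54 in DC, higher by 0.63 (SE 0.0486, adjusted p = 2.53e-07). B2m was 13.61 and 13.57 in DC, above all progenitor arrays, by 0.09 and 0.10 over WT and KO Pre MegE, with a difference of 0.28 (SE 0.0608, adjusted p = 0.00114). The difference was taken against the mean of the 3 stages. Of all 11560 genes tested, 25.3% were called higher in DC and the median gene was lower by 0.59. Quantile normalization moved that median to -0.099 and the share of calls that were higher from 28.2% to 45.9%, and on that scale B2m differed by 0.69 and Tapbp by 1.23.

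**Figure D2:**
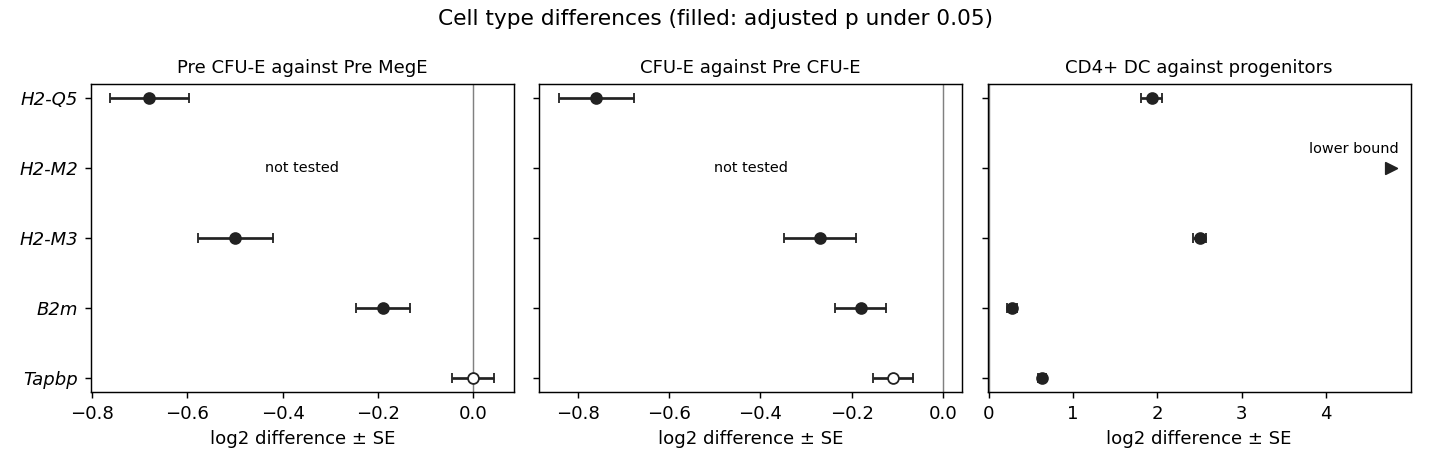
Fitted log2 differences with their standard errors (x axis) for each measured class I gene (y axis), between successive erythroid stages and between DC and the mean of the progenitors; filled points have an adjusted p under 0.05, and the triangle is the lower bound for H2-M2 in DC. H2-Q5, H2-M3 and B2m lie left of 0 at both erythroid steps, Tapbp is open at both on this scaling, and all 5 symbols lie right of 0 for DC.

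The sequences upstream of the start sites are shown for the 4 genes that had a probe set and an entry in the RefSeq promoter table (build GRCm38.p6), because B2m and H2-M3 fell together with erythroid stage while H2-M2 was found high in DC alone of these cells. Each line runs 5′ to 3′ over the 250 bases before the annotated start. Capitals mark matches on either strand to an interferon response core (GAAANNGAA), a kappaB site (GGGNNTTCC), the core of the X2 box used with RFX and NLRC5 (TGACG) and a CCAAT box (CCAAT). The windows are chr2:122147437-122147686 on the plus strand for B2m, chr17:37269984-37270233 on the plus strand for H2-M3, chr17:37483555-37483804 on the minus strand for H2-M2 and chr17:33919228-33919477 on the plus strand for Tapbp.
B2m: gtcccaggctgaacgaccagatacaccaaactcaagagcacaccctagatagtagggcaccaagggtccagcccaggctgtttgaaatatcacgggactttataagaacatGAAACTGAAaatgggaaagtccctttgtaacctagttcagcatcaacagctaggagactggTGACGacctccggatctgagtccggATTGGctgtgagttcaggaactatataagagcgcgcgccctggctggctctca
H2-M3: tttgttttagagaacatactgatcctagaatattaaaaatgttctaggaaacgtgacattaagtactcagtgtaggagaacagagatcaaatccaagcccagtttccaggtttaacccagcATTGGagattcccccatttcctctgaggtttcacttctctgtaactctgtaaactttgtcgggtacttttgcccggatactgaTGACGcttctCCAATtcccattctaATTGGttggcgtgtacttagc
H2-M2: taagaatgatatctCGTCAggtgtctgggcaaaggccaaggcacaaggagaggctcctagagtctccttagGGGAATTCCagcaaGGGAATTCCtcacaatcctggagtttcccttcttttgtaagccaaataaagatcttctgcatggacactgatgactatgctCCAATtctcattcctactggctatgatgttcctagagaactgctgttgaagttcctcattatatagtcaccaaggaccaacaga
Tapbp: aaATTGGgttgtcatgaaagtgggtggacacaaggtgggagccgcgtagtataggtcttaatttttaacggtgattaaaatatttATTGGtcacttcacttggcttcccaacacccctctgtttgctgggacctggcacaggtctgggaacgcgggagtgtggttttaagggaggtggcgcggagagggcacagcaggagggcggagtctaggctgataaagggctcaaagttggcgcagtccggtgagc
The B2m window held 1 match to the interferon response core, 1 to the X2 core and 1 to CCAAT. The H2-M3 window held 1 X2 core, 42 to 46 bases before the start, and 3 CCAAT boxes. The H2-M2 window held 2 copies of the same kappaB match, 157 to 165 and 171 to 179 bases before the start, with 1 X2 core and 1 CCAAT box. The Tapbp window held 2 CCAAT boxes and none of the other motifs. Among 32851 promoters, 7.13% held the interferon response core, 4.98% the kappaB match, 17.8% the X2 core and 33.8% CCAAT, so the shorter motifs are common. The kappaB pattern was a fixed run of 9 bases, so kappaB sites of another length were left unmarked in every window. A window without a kappaB match, such as that of B2m, is therefore not shown to lack such a site. These are letter matches only, and no binding was measured.

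H2-Q5 was lower in Het and KO than in WT at every progenitor stage, and this is a description, since H2-Q5 was singled out with its genotype values known. KO minus WT for H2-Q5 was -0.82 in Pre MegE, -1.09 in Pre CFU-E and -0.58 in CFU-E, which are 1.77-fold, 2.13-fold and 1.5-fold lower intensities. Het minus WT was -0.57, -0.78 and -0.47 at the same stages. Het was thus below WT at all 3 stages, and KO lay below Het by 0.25, 0.32 and 0.12. In the fit over the 9 arrays the KO difference was -0.83 and the Het difference -0.60, each with an SE of 0.0822, and KO minus Het was -0.23. In DC, KO minus WT was -0.27, with 1 array each and no replicate check.

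For the other members no genotype difference passed the test. KO minus WT over the progenitors was -0.09 for H2-M3 (SE 0.0786, adjusted p = 0.987), -0.14 for B2m (SE 0.0561, adjusted p = 0.842) and -0.02 for Tapbp (SE 0.044, adjusted p = 0.999). Het minus WT was -0.02, -0.08 and -0.03 (adjusted p = 0.994, 0.973 and 0.981), with the same WT arrays as the reference. H2-M2 was at 5.45 to 5.64 in WT, 5.55 to 5.63 in Het and 5.53 to 5.68 in KO progenitors, so its genotypes overlapped. Of these 3 members, limma called 0 lower for KO against WT, where 0.121% of all tested genes were, and 0 for Het against WT, where 0.028% were. Over all genes 614 and 566 had an unadjusted p under 0.05 in these comparisons. H2-Q5 is among the genes below the threshold for KO against WT, but it was chosen with that value known, so nothing is read from its presence there. The H2-M3 differences were near 0 and changed sign when single arrays were left out, as for KO minus WT without KO CFU-E (0.02). For KO against Het, 0% of the 10701 genes were called by limma in either direction, while 255 had an unadjusted p under 0.05. The order WT above Het above KO at all 3 stages was met by 70 genes, 0.654% of those tested, H2-Q5 included, which the choice of this gene fixes.

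Class I genes of the Q cluster are close copies, and a probe set for one can pick up RNA of another. The annotation listed 31 class I heavy chain symbols of the H2 complex, of which 20 had a probe set of their own, and 7 probe sets carried several of these symbols. The gene next to H2-Q5 on the array, H2-Q4, was 11.31, 11.20 and 10.96 in WT, Het and KO Pre MegE, 10.60, 10.23 and 10.21 in Pre CFU-E and 9.90, 9.45 and 9.39 in CFU-E. It had the genotype order of H2-Q5 at each stage with smaller steps. KO minus WT for H2-Q4 was -0.42 (SE 0.0661, adjusted p = 0.0791, and 0.0495 without Het Pre CFU-E) and Het minus WT -0.31 (adjusted p = 0.447). From Pre MegE to CFU-E it fell by 1.58 (adjusted p = 2.91e-08).

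A probe set annotated to both H2-Q6 and H2-Q8, members of the family that encodes the Qa-2 antigen, had wider steps of the same order, and it was picked out after its values were seen. It was 11.52, 10.51 and 10.07 in WT, Het and KO Pre MegE. In Pre CFU-E it was 11.05, 9.30 and 8.96, and in CFU-E 9.64, 8.30 and 7.91. WT was the highest at each stage by at least 1, and WT CFU-E lay above Het and KO Pre CFU-E. In a fit over the 15748 probe sets that passed the filter, chosen after the data were seen, KO minus WT was -1.76 (SE 0.122, adjusted p = 0.00371) and Het minus WT -1.37 (adjusted p = 0.0331), where 0.0953% and 0.0127% of probe sets were called lower. The Het call was lost when any of 7 of the 9 arrays was left out (adjusted p up to 0.279), each array but WT Pre MegE and WT Pre CFU-E. In DC the same probe set was 12.16 in WT and 12.05 in KO. The signal of this probe set cannot be assigned to H2-Q6 or to H2-Q8, nor can the H2-Q5 signal be called free of H2-Q6 or H2-Q8 RNA, since probe sequences were not used here.

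**Figure D3:**
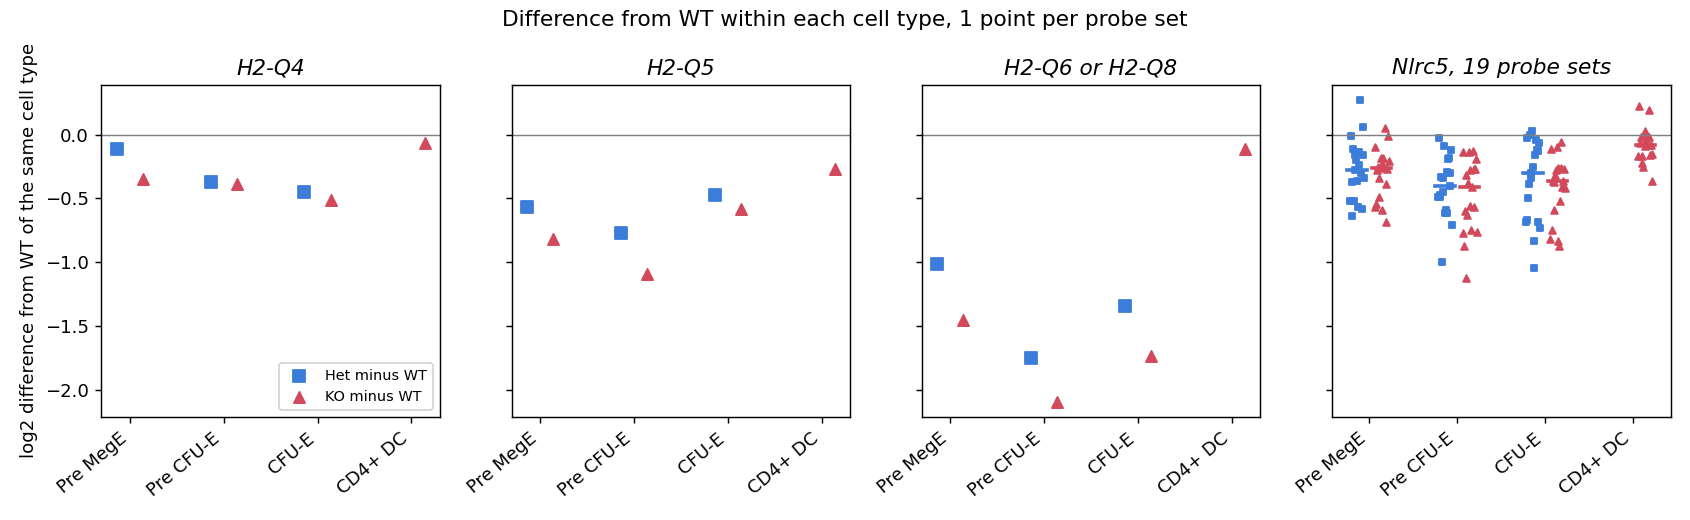
Log2 difference from the WT array of the same cell type (y axis) for Het (blue squares) and KO (red triangles), by cell type (x axis), for the probe sets of H2-Q4, of H2-Q5 and of H2-Q6 or H2-Q8 and for the 19 probe sets of Nlrc5, whose short bars are medians. All Het and KO progenitor points of the 3 Q panels are below 0, down to the H2-Q6 or H2-Q8 probe set in Pre CFU-E, and the DC points are nearer to 0.

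The other multi-gene probe sets cover the members with no probe set of their own. H2-K1, the classical K heavy chain, shares 2 probe sets with H2-D1, the classical D heavy chain. The first was 12.32 to 12.48 in Pre MegE, 12.16 to 12.36 in Pre CFU-E, 11.87 to 12.11 in CFU-E and 12.99 and 13.05 in WT and KO DC. The second was 12.48 to 12.67, 12.20 to 12.49, 11.76 to 12.12 and 12.80 in both DC arrays. Both fell from Pre MegE to CFU-E, by 0.45 (adjusted p = 8.7e-05) and 0.63 (adjusted p = 0.000105), and both were higher in DC, by 0.80 and 0.50. Their KO minus WT differences in progenitors were -0.19 and -0.23 (adjusted p = 0.471 and 0.578). H2-T23, which encodes the Qa-1 molecule seen by CD94/NKG2 receptors, shares 1 probe set with H2-T-ps. It was 10.24, 10.37 and 10.31 in WT, Het and KO Pre MegE, 9.40, 9.22 and 9.36 in Pre CFU-E, 9.33, 9.27 and 9.21 in CFU-E and 10.68 and 10.70 in WT and KO DC. It fell by 0.98 (adjusted p = 7.58e-06) at the first step, differed by -0.06 at the second (adjusted p = 0.525) and by -0.03 between KO and WT (adjusted p = 0.99). None of these 3 signals can be given to 1 gene.

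The H2 region was followed from Tapbp to H2-M2 in RefSeq order. It held 164 genes with a probe set of their own, of which 96 were tested in the progenitors. KO minus WT went beyond 0.3 in either direction for 2 of them, the neighbours H2-Q4 and H2-Q5, and the other genes lay between -0.22 and 0.22. Probe sets shared by several genes were left out of this count. Among them was that of H2-Q6 and H2-Q8, also of the Q cluster, with a KO minus WT difference of -1.76. H2-Q5 was chosen with its genotype values known, so its place beyond 0.3 was fixed by that choice. The share of all tested genes beyond 0.3 was not taken, so the 2 region genes have no background and are a description. Zbtb46 is on chromosome 2, as is B2m, whereas the H2 complex is on chromosome 17. All arrays carry the C57Bl/6 label, a strain of the H2 haplotype known as b. Class I alleles differ between haplotypes and can differ in how they bind array probes, and the part of an H2 segment from another strain or of cross-hybridization in these values was not tested. In DC, where H2-Q4, H2-Q5 and the H2-Q6 or H2-Q8 probe set were all brighter than in progenitors, KO minus WT was -0.07, -0.27 and -0.11.

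**Figure D4:**
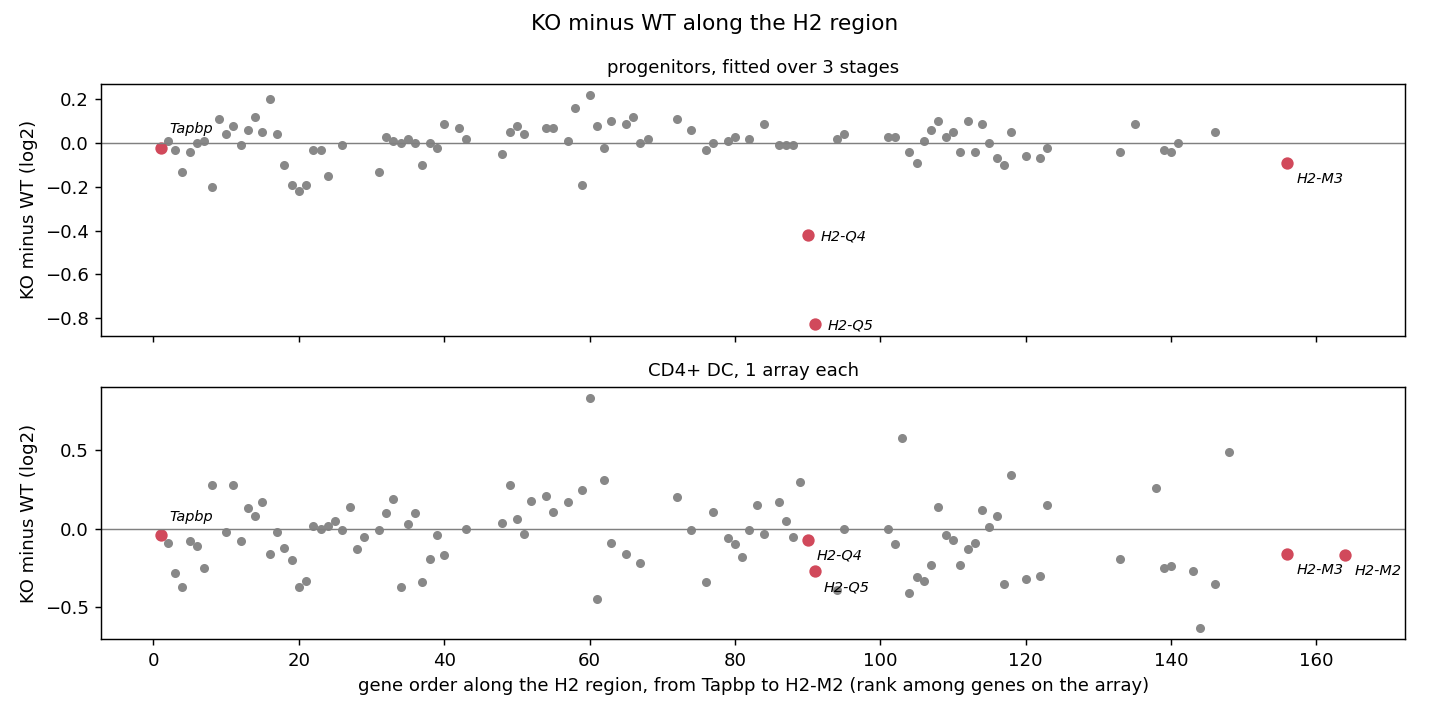
KO minus WT on the log2 scale (y axis) for the tested genes of the H2 region in their order from Tapbp to H2-M2 (x axis, rank among genes on the array), in progenitors (upper panel, fitted over 3 stages) and in DC (lower panel, 1 array each); red points are H2-Q4 and measured class I genes. In progenitors H2-Q4 and H2-Q5 are the 2 points below -0.3, and in DC H2-Q5 at -0.27 lies among its region's other genes. Probe sets shared by several genes, such as that of H2-Q6 and H2-Q8, are not drawn.

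Other class I genes were read from lists. Of 16 other heavy chain genes with their own probe set, 3 were tested in progenitors. From Pre MegE to CFU-E, H2-Q4 and H2-T10 (-0.61, adjusted p = 7.77e-06) fell and H2-T24 rose (0.22, adjusted p = 0.00323), with a list median of -0.61 against 0.05 for all genes. In DC, H2-Q4 was higher (1.03, adjusted p = 5.27e-07) and H2-T24 (-0.73, adjusted p = 1.1e-06) and H2-T10 (-0.17, adjusted p = 0.044) lower. H2-Q2 was 8.65 and 8.95 in WT and KO DC and 7.19 to 7.53 in progenitors, below every progenitor array's median, so it entered the comparison only through DC and is given as levels. Of the class I relatives encoded outside H2, 3 were tested in progenitors, and all 3 fell from Pre MegE to CFU-E, where 35.1% of all tested genes did. They were Cd1d1 (-1.55, adjusted p = 2.51e-07) and Cd1d2 (-1.72), which present lipids, and Mr1 (-0.68), which presents vitamin B metabolites. For KO against WT in progenitors, 0 of 3 genes of either list were called.

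Peptide supply genes moved less evenly. Of 9 peptide loading and trimming genes, 3 fell and 3 rose from Pre MegE to CFU-E, with a median of -0.09. These shares are near those of all tested genes, of which 35.1% fell and 41.5% rose. Both subunits of the peptide transporter fell, Tap1 (-1.33, adjusted p = 1.02e-07) and Tap2 (-0.58, adjusted p = 0.000189), as did the aminopeptidase gene Npepps (-0.15, adjusted p = 0.0147). The chaperone genes Canx (0.21, adjusted p = 0.00202) and Pdia3 (0.20, adjusted p = 0.0074) and the peptidase gene Tpp2 (0.12, adjusted p = 0.0427) rose. Of 6 immunoproteasome and activator genes, 2 fell and 2 rose over the same interval, again near the shares of all genes. The catalytic subunits Psmb8 (-1.89, adjusted p = 1.54e-06) and Psmb9 (-0.87, adjusted p = 0.000147) fell, and the activator genes Psme2 (0.29) and Psme3 (0.20) rose. In DC 3 peptide loading genes were higher, led by Tapbpl (0.57, adjusted p = 3.16e-06) and Tap1 (0.42, adjusted p = 0.000221). The other 6 were lower, led by Npepps (-0.94, adjusted p = 1.59e-08) and Canx (-0.79, adjusted p = 6.53e-08). They included Tap2 (-0.34, adjusted p = 0.00354), so the 2 transporter subunits differed in direction. The list median was -0.54 beside -0.59 for all genes. Of all tested genes 25.3% were higher and 64.6% lower in DC, so these 9 followed the background shares closely. Of the 6 immunoproteasome and activator genes, 2 were higher in DC, Psmb8 (0.75, adjusted p = 0.000368) and Psmb9 (0.45, adjusted p = 0.0046). Another 2 were lower by more, Psme3 (-1.98, adjusted p = 3.65e-11) and Psme2 (-0.78, adjusted p = 1.45e-05), beside the same background shares. For KO against WT in progenitors, 0 of 9 and 0 of 6 were called, with medians of -0.03 and -0.08.

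Of 9 class I transcription genes, 7 fell and 1 rose from Pre MegE to CFU-E, with a median of -0.32, where 35.1% of all tested genes fell and 41.5% rose. The falls included Irf1 (-1.71, adjusted p = 4.28e-06), Rfx5 (-0.98, adjusted p = 1.21e-06), Nlrc5 (-0.42, adjusted p = 1.46e-05) and Irf8 (-0.35, adjusted p = 0.000105). The gene that rose was Rfxap (0.70, adjusted p = 7.02e-06), so the RFX genes did not all fall. For KO against WT 0 of 9 were called, with a median of 0.01. Irf1, an interferon regulatory factor, was 10.78, 10.57 and 10.62 in WT, Het and KO Pre MegE, 10.27, 9.73 and 9.48 in Pre CFU-E and 9.65, 8.64 and 8.55 in CFU-E. WT was highest at each stage, with the widest gaps in CFU-E, and KO minus WT was -0.69 (SE 0.15, adjusted p = 0.239). Over 15 alternatives it was between -0.91 and -0.40. The first was without WT Pre MegE (adjusted p = 0.0445) and the second the mean over probe sets (adjusted p = 0.37). Irf1 was 11.16 and 11.15 in WT and KO DC.

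Nlrc5, the class I transactivator, had 19 probe sets, which disagreed in size. The one with the highest mean gave KO minus WT of -0.11 (adjusted p = 0.808), and the mean over all of them -0.40 (adjusted p = 0.0215). Of the 17 probe sets that were tested, 2 were called lower in KO, both at -0.72 (adjusted p = 0.0119 and 0.0353), where 0.0953% of all probe sets were. KO was below WT for 18 of 19 in Pre MegE, 19 of 19 in Pre CFU-E and 19 of 19 in CFU-E, with median differences of -0.26, -0.40 and -0.36. Het was below WT for 17, 19 and 17, with medians of -0.28, -0.40 and -0.30. KO and Het lay closer to each other, with medians of -0.06, -0.09 and -0.03. In DC, KO was below WT for 16 of 19 with a median of -0.07. Probe sets of 1 gene share their RNA and are not replicates.

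Markers of other cell types were set beside these values. Of 7 neutrophil markers, 1 was called lower in KO, where 0.121% of all tested genes were. The list median was -0.26 for KO minus WT and -0.04 for Het minus WT. The called gene was Elane (-0.43, adjusted p = 0.0136), which encodes neutrophil elastase. Elane was also called lower in Het (-0.42, adjusted p = 0.0366), where 0.028% of all tested genes were. Its KO and Het calls were lost under 5 and 10 of 15 alternatives. The summed intensity of the 7 was 20540 to 40356 in WT, 18359 to 39186 in Het and 16264 to 34430 in KO. The macrophage markers summed to 720 to 944, 707 to 833 and 699 to 786, the T cell markers to 457 to 484, 472 to 512 and 460 to 471, the B cell markers to 477 to 701, 483 to 666 and 502 to 707, and the plasmacytoid DC markers to 1570 to 1881, 1500 to 1894 and 1570 to 1829. The NK cell markers, of which only Nkg7 was above the progenitor array medians, ranged from 831 to 6018, 616 to 6255 and 647 to 6317. The part of other cell types in the genotype differences of H2-Q5 was not tested.

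The pair of DC arrays has no replicate, and a difference of at least 0.25 lower in KO was met by 14.5% of 10554 genes. Of the 5 measured members H2-Q5 met it, while H2-M2 (-0.17), H2-M3 (-0.16), Tapbp (-0.04) and B2m (-0.03) did not. Of 11 interferon-induced genes, a list added after the data were seen, 9 were lower by at least 0.25 in KO DC and 0 higher, with a median of -0.56 against -0.051 for all genes. Rtp4 was 8.70 in WT and 7.28 in KO, and Ifit3 8.89 and 7.54. In the same arrays 5 of 6 macrophage markers were lower in KO, with a summed intensity of 9828 to 12337. In progenitors 0 of 9 tested interferon-induced genes were called for KO against WT, with a median of -0.18.

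Over the 11 arrays, the genes whose pattern was most like that of H2-Q5, after each gene's own mean was subtracted, were Sik1 (root mean square log2 difference 0.27), Rtl8c (0.30), Nfatc1 (0.30), Tmem184b (0.32) and Casp1 (0.32). Sik1 was 11.54, 11.26 and 11.17 in WT, Het and KO Pre MegE and 12.44 and 12.59 in WT and KO DC, so its DC arrays had the opposite genotype order. All 5 genes were highest in DC and lower at each later erythroid stage in WT, and the likeness, over arrays of the same 4 cell types, is given as a description.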

How the data were processed

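Expression was measured on 11 single-colour Affymetrix arrays, 1 per genotype and cell type. The deposited values are linear intensities, made by the authors with RMA, according to the submitters' processing notes; the sources used here give neither its version nor any later scaling. Of 29674 probe sets, 21780 had 1 gene symbol in the platform annotation, which gave 19933 genes, and 0 symbols needed an update. The log2 of each intensity was taken with no further scaling. A gene entered a fit if at least 2 of its arrays gave a value not below the array's median over all probe sets, which left 10701 genes for the 9 progenitor arrays and 11560 for all 11. For the DC pair 1 such array was enough.

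Differences were tested with limma 3.58.1 in R 4.3.3 (lmFit and eBayes, two-sided, Benjamini-Hochberg adjustment over all genes tested, called under 0.05), with stage and genotype as terms (4 residual degrees of freedom), or cell type and genotype over all arrays (5). The p-values measure agreement between arrays, and the number of arrays limits the precision. The code was tested on simulated data with known differences. H2-Q5's genotype differences are given as a description, and nothing is read from its place among the calls.

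The members and gene lists were chosen with earlier results of these data known. The named genes are the members in full, up to 6 called genes per list by size of difference, and the 5 genes most like H2-Q5 with predicted genes left out; the same for H2-K1 was not possible without a probe set of its own. Irf1, Nlrc5 and Elane, the multi-gene probe sets and the interferon-induced genes were followed up after their values were seen. Alternatives were centring, quantile normalization, no filter, the mean over probe sets, array weights, only the genotypes compared and leaving out each array. Promoter sequences are RefSeq's, build GRCm38.p6, and 4 of the 5 measured members had an entry.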

Additional observations from a re-analysis of the deposited data

Results flagged for a closer look

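The probe set of H2-Q6 and H2-Q8 was picked out after its values were seen: KO and WT lay far apart in progenitors and close in the single pair of DC arrays. KO minus WT was higher in DC than in the progenitors by 1.65 on the log2 scale (SE 0.245, limma interaction adjusted p = 0.0197 over 16860 probe sets), with KO below WT in 3 of 3 progenitor pairs (fitted difference -1.76) and in the DC pair (-0.11). This test was added after the data were seen, for the same contrast by which the probe set was picked. Its adjusted p is therefore no separate support, and nothing is read from it. The test also takes the lone DC arrays to vary like the progenitor arrays, so the spread between DC arrays is assumed and not measured. Without KO Pre MegE the difference was 1.72 (adjusted p = 0.056) and without WT CFU-E 1.66 (adjusted p = 0.0531), and over all 11 alternatives it was between 1.47 and 1.81. The same interaction was 0.34 for H2-Q4, 0.33 for the Nlrc5 probe set with the highest mean, and 0.25 and 0.23 for those shared by H2-K1 and H2-D1. It was 0.10 for B2m, -0.07 for H2-M3 and -0.02 for Tapbp, and none of these passed the threshold.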

How the results depend on the processing

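No called difference of a measured member reversed under the alternatives run. Reversals were of small uncalled differences. Tapbp, Pre CFU-E minus Pre MegE (0.00), was -0.06 with quantile normalization, 0.00 with array weights and between -0.01 and 0.01 when single arrays were left out, and CFU-E minus Pre MegE was 0.02 with centring. H2-M3, Het minus WT (-0.02), was 0.01 with array weights. When single arrays were left out, H2-M3 was between -0.11 and 0.05 for Het minus WT, between -0.15 and 0.02 for KO minus WT and between -0.14 and 0.04 for KO minus Het, where B2m was between -0.09 and 0.01 and Tapbp between -0.01 and 0.02. Tapbp, CFU-E minus Pre CFU-E, passed with quantile normalization (-0.14, adjusted p = 0.0321) and array weights (-0.12, 0.00293). The KO minus WT difference of H2-Q5 in progenitors stayed between -0.96 and -0.73 over 15 alternatives, and its DC pair difference between -0.30 and -0.22 over 3. The H2-M3 fall over both erythroid steps was between -0.86 and -0.59 and that of B2m between -0.41 and -0.25, both called in 15 of 15. In DC all 4 members other than H2-M2 were called in 17 of 17.

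The number of members called for CFU-E against Pre CFU-E was 3. It was between 1 and 3 when single arrays were left out and reached 4 only with quantile normalization or array weights. In the genotype comparisons the member counted was H2-Q5, chosen with these values known, and nothing is read from it: it was 1 for KO against WT and between 0 and 1 when single arrays were left out (0 without KO Pre MegE or WT Pre CFU-E). For Het against WT it was 0, with 1 under array weights and between 0 and 1 when single arrays were left out (1 without KO CFU-E). The estimation of array weights stopped before it converged. Over all genes, 15 were called for KO against WT, with 1 to 26 under the alternatives, and 4 for Het against WT, with 1 to 44; 4712 were called for CFU-E against Pre CFU-E, with 7163 under array weights. With array centring, the share of calls that were higher went from 42.5% to 52% for CFU-E against Pre CFU-E and from 54.2% to 64.9% for CFU-E against Pre MegE. No paired analysis was possible because the labels carry no replicate numbers. With 1 array per group, each call between genotypes rests on 3 arrays a side, and H2-M2 in progenitors lies too near the low end of the scale for a difference to be read.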
